A study of Sus scrofa with 32 samples.

Results

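The genes described here code for the proteins of the cytosolic ribosome, measured in coronary artery, the fat around it and thoracic aorta of juvenile pigs. Members were taken by name from the human gene symbols (AnexDB) that the authors paired with the probe sets: RPL or RPS followed by a number, with an optional A, X, Y or L at the end, or RPLP0, RPLP1, RPLP2 or RPSA, with the RPS6K kinases left out. Of the 14327 probe sets in the deposited table, 113 carried such a symbol, and these belonged to 67 of the 8406 genes with a symbol. Where a gene had several probe sets, the brightest on average stood for it. The 67 genes comprised 37 proteins of the large subunit, 27 of the small subunit and the 3 stalk proteins. All 67 were among the 10029 probe sets tested, which left out the 30% with the lowest mean.

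The samples were 32 Affymetrix porcine arrays from 11 Ossabaw miniature pigs, aged 22 weeks. The lean group (6 pigs) had eaten a low fat diet and the obese group (5 pigs) a diet rich in fat, cholesterol and high fructose corn syrup, each for 16 weeks. From each pig came 1 array each of a coronary artery, the left anterior descending (LAD), of its perivascular adipose tissue (PVAT) and of the thoracic aorta in its descending part (TA), except that pig 63 had no TA array. LAD and PVAT therefore had 6 lean and 5 obese arrays, TA had 5 of each, and replicates were separate animals. Each array held whole homogenised tissue. RNA of the fat was extracted with another kit than RNA of the arteries, so fat and kit cannot be told apart in any comparison with PVAT.

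A ribosome reads messenger RNA with its small subunit and joins amino acids with its large subunit. The stalk proteins on the large subunit bring in the elongation factors. Its proteins are needed in near equal number, their messenger RNAs are among the most abundant of a cell, and in mammalian cells the translation of these messages follows nutrient signals through mTORC1.

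Values are log2 summaries per probe set, so a difference of 1 is a doubling. Smooth muscle markers (12 genes) had array means of 13.03 to 13.48 in LAD, 12.10 to 13.21 in TA and 11.02 to 12.16 in PVAT. Adipocyte markers (6 genes) ran from 10.45 to 12.33 in PVAT and no higher than 9.95 in LAD and 9.14 in TA. They thus set every PVAT array apart from every artery array. Smooth muscle markers did not, as the obese TA array of pig 57, at 12.10, lay within the PVAT range. Nor did they separate LAD from TA, whose ranges overlapped. Cardiomyocyte markers (21 genes) reached beyond the TA range of 6.51 to 8.05 in every LAD array (8.15 to 12.42). They reached beyond it in the PVAT arrays too (up to 12.67), save the lean PVAT array of pig 73 at 6.71. No array duplicated another (highest correlation 0.988). Array medians ran from 8.32 to 8.56.

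The ribosomal protein genes were among the brightest features on the arrays. Their means over the 32 arrays ran from 10.78 for RPS27L, a paralogue of RPS27 that p53 induces in human cells, to 14.10 for RPL10, with a median of 13.32. At a mean of 13 or above there were 138 probe sets in the table, and 61 of them (44.2%) were members. The highest value of any probe set on any array was 14.52. Levels of different probe sets depend on their probes and are not compared further.

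The genes varied little between pigs of a group. The SD within groups, pooled over the 6 groups, had a median of 0.059 over the 67 genes, from 0.036 for RPS20 to 0.12. Apart from the members and 3 second probe sets of members, 74 probe sets had a mean of 13 or above, 5 of them ribosomal sequences under pseudogene symbols outside the rule. Among these 74 the median was 0.15, and among all tested probe sets 0.24. The median SD within the obese TA group was 0.079 for the members, against 0.037 to 0.058 in the other 5 groups.

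**Figure D1:**
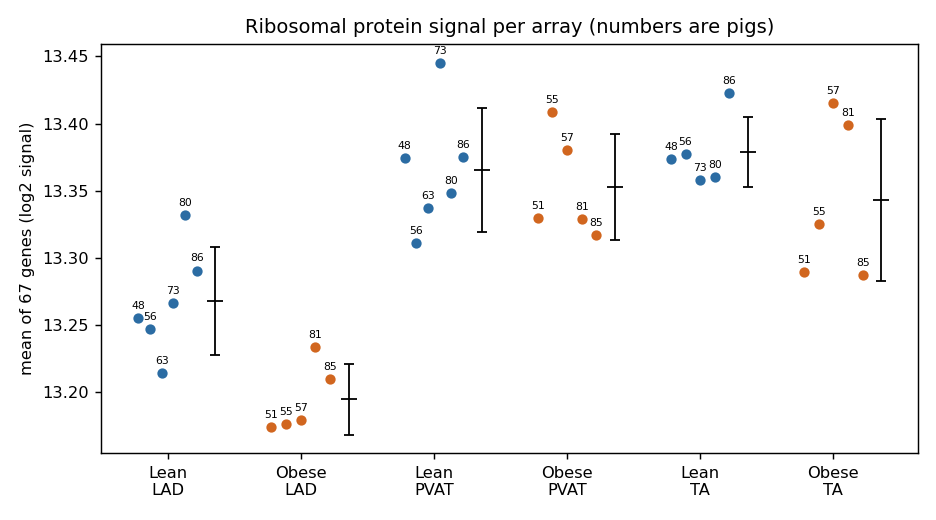
Mean log2 value of the 67 ribosomal protein genes on each array (y axis, log2), by tissue and diet, with lean pigs in blue, obese pigs in orange and black bars for the group mean ± SD. The LAD arrays lie between 13.17 and 13.33, the PVAT arrays between 13.31 and 13.45 and the TA arrays between 13.29 and 13.42.

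The mean over the 67 genes was lowest in the coronary artery. It ran from 13.17 to 13.33 with a median of 13.23 over the 11 LAD arrays, from 13.31 to 13.45 with a median of 13.35 over the 11 PVAT arrays, and from 13.29 to 13.42 with a median of 13.37 over the 10 TA arrays. The LAD range met the other ranges only at its upper end. Within pigs the PVAT mean exceeded the LAD mean in 11 of 11 pigs, by 0.016 (pig 80) to 0.23 (pig 55). The LAD mean was below the TA mean in 10 of 10 pigs, with differences from -0.24 (pig 57) to -0.028 (pig 80). PVAT and TA were not ordered: the PVAT mean was higher in 5 pigs and lower in 5. In whole tissue, fewer cells of a type and less RNA per cell cannot be told apart.

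Between the fat and the coronary artery, 45 of the 67 genes were higher in PVAT and 0 were lower (limma, Benjamini-Hochberg adjusted p under 0.05 over all tested probe sets). Of all tested probe sets, 24.2% were higher in PVAT and 32.4% lower. The median difference over the 67 genes was 0.12, with a range of -0.033 to 0.47, while the median over all tested probe sets was -0.044. Of the 74 other bright probe sets 23 were higher and 24 lower, with a median of 0.032. The large subunit had 24 of 37 genes higher (median 0.10), the small subunit 19 of 27 (median 0.13) and the stalk 2 of 3. In 15 genes (22.4%) every PVAT array lay above every LAD array, against 3.81% of all tested probe sets, and in 0 every PVAT array lay below, against 11.1%. The difference had the same sign in all 11 pigs for 28 genes.

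RPS7, a small subunit protein that also binds MDM2 in human cells, had the largest difference of the family. Its lowest, median and highest values were 12.52, 12.74 and 12.92 in LAD, 13.09, 13.19 and 13.34 in PVAT, and 12.91, 13.03 and 13.08 in TA. All PVAT arrays lay above all LAD and all TA arrays, and the TA arrays overlapped the top of the LAD range. PVAT exceeded LAD by 0.47 (SE 0.043, limma adjusted p = 4.86e-10), a 1.38-fold difference that was present in 11 of 11 pigs. LAD was below TA (-0.27, adjusted p = 1.78e-05, 10 of 10 pigs), and PVAT was above TA by 0.19 (adjusted p = 0.00042, 10 of 10 pigs).

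RPS27L followed. Its values were 10.49, 10.58 and 10.83 in LAD, 10.90, 11.02 and 11.23 in PVAT, and 10.53, 10.70 and 10.93 in TA. All PVAT arrays lay above all LAD arrays, while LAD and TA overlapped over most of their ranges. The difference between PVAT and LAD was 0.39 (SE 0.054, limma adjusted p = 5.77e-07, 11 of 11 pigs) and that between PVAT and TA 0.31 (SE 0.055, adjusted p = 1.73e-05). LAD minus TA was -0.083 and did not pass (adjusted p = 0.334). Its parent gene RPS27 differed by 0.17 between PVAT and LAD (adjusted p = 0.000102) and by -0.13 between LAD and TA (adjusted p = 0.00632).

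RPLP2, one of the paired acidic stalk proteins, had values of 11.49, 11.58 and 11.68 in LAD, 11.70, 11.85 and 12.13 in PVAT, and 11.61, 11.74 and 12.08 in TA. PVAT lay above LAD without overlap, by 0.33 (SE 0.056, limma adjusted p = 1.36e-05). LAD was below TA (-0.19, adjusted p = 0.0151) and PVAT above TA by 0.14 (adjusted p = 0.0323). Its partner RPLP1 did not pass between PVAT and LAD, at 0.015 (adjusted p = 0.735), and was lower in LAD than in TA (-0.10, adjusted p = 0.0491).

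RPS15A, a small subunit protein, also had no overlap between PVAT and LAD, with LAD arrays from 12.97 to 13.09, TA arrays from 13.07 to 13.31 and PVAT arrays from 13.26 to 13.43. Its difference between PVAT and LAD was 0.30 (SE 0.037, limma adjusted p = 1.16e-07). The platform annotation gives its probe set to B2M instead, so its identity is uncertain. RPL28 of the large subunit (0.28, adjusted p = 3.54e-05) and RPS21 of the small subunit (0.26, adjusted p = 1.3e-06) were likewise above LAD on every PVAT array.

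Several well known members did not pass between PVAT and LAD. RPL3, which lies at the catalytic centre, differed by 0.031 (adjusted p = 0.666), and RPL10, which joins late in assembly, by 0.021 (adjusted p = 0.608). RPS4X, the X-linked small subunit gene, differed by 0.047 (adjusted p = 0.366), and RPS19, the gene most often mutated in Diamond-Blackfan anaemia, by 0.049 (adjusted p = 0.198). Others passed: RPL39, at the exit of the protein tunnel, was higher by 0.19 (adjusted p = 0.000106). RPS6, the substrate of S6 kinase, was higher by 0.11 (adjusted p = 0.0286), and RPSA, also known as the laminin receptor precursor, by 0.25 (adjusted p = 0.000385).

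**Figure D2:**
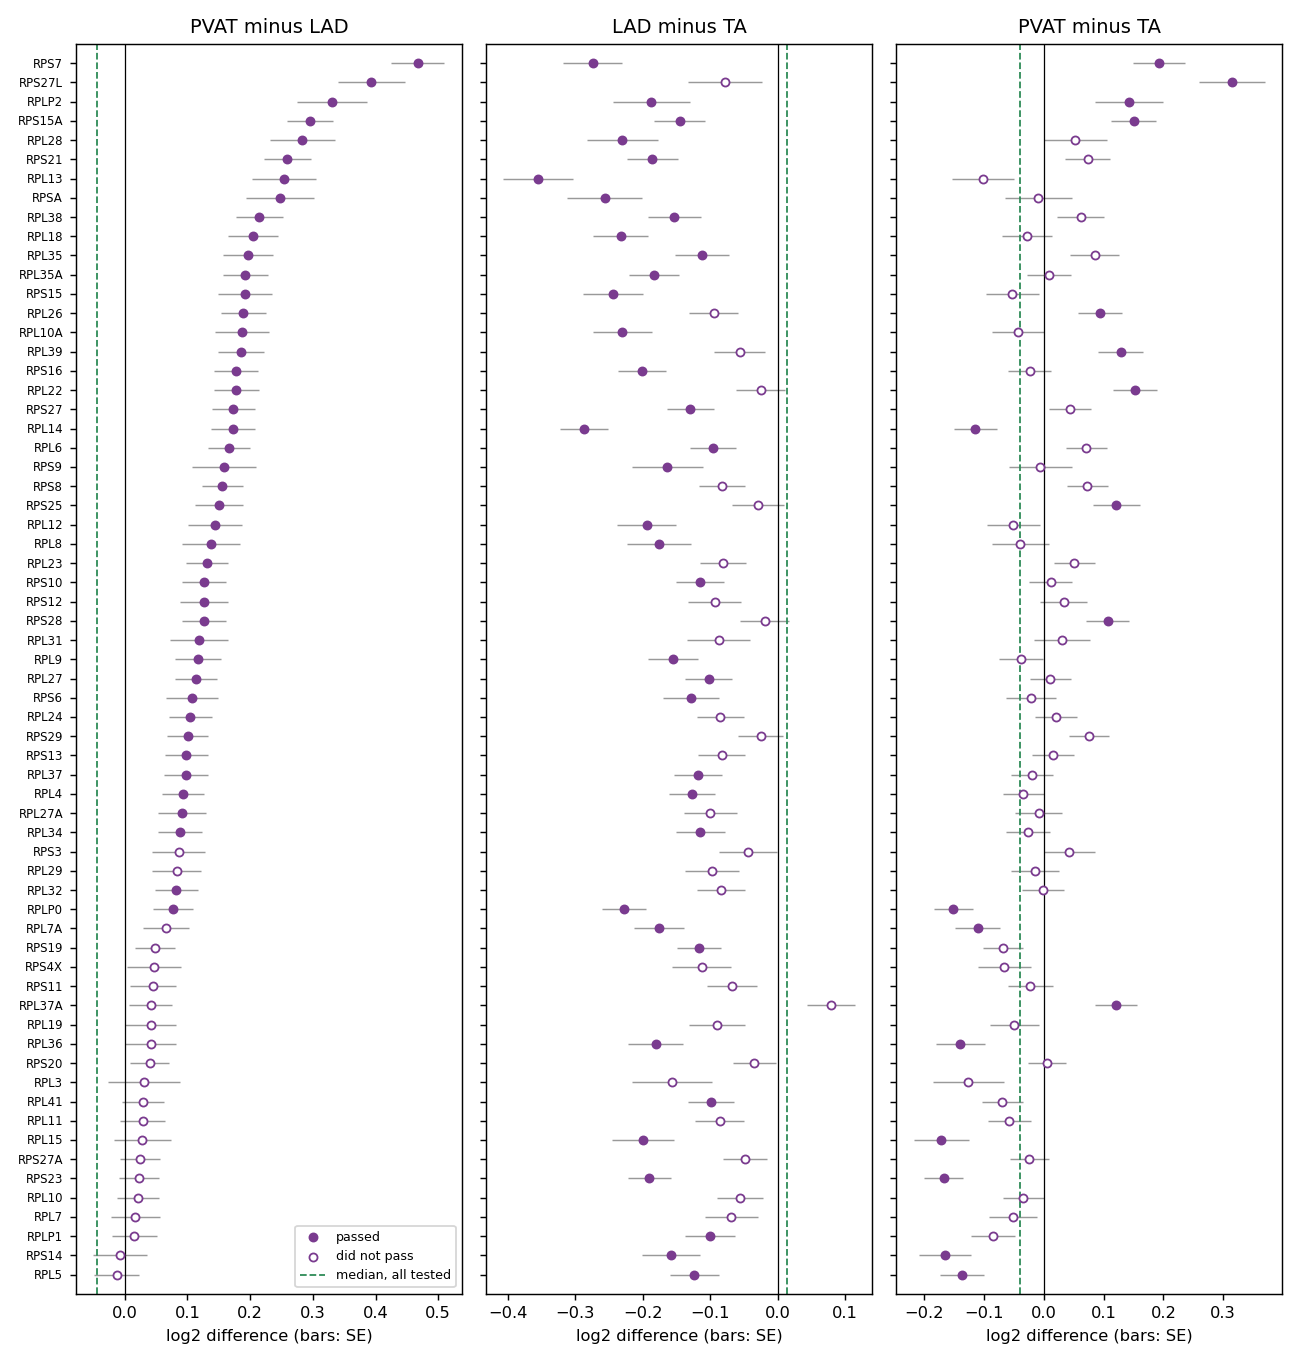
Log2 difference of the ribosomal protein genes reported here (points with SE bars, 1 row per gene) in the tissue comparisons, filled where limma's adjusted p was under 0.05 and open where it was not, with a dashed green line at the median of all tested probe sets. PVAT minus LAD lies mostly above 0 (median 0.12 over all 67 genes), LAD minus TA mostly below 0 (median -0.12) and PVAT minus TA around 0 (median -0.015).

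Between the arteries, 39 of the 67 genes were lower in LAD than in TA and 0 were higher (limma, adjusted p under 0.05). Of all tested probe sets, 10.1% were lower in LAD and 14.4% higher, a split that became 1376 lower and 1274 higher with arrays centred on their median, from 1013 and 1445. The members' median was -0.12, with a range of -0.35 to 0.079, and the median of all tested probe sets was 0.014. Of the 74 other bright probe sets 23 were higher and 12 lower, with a median of 0.11. The large subunit had 22 of 37 genes lower, the small subunit 14 of 27 and the stalk 3 of 3. The difference was negative in all 10 pigs with both arteries for 32 genes. How many of all tested probe sets had 1 sign in all pigs was not counted, so no share stands beside this. RPL10A, RPL13, RPL35A, RPLP0 and RPS23 (7.46% of the members, against 0.668% of all tested probe sets) had every LAD array below every TA array. In 0 members, against 3.18% of all tested probe sets, every LAD array lay above. Since the same LAD arrays enter this comparison and the one with PVAT, each gene's values are given side by side and the comparisons are no check of each other.

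RPL13, a large subunit protein, showed the largest difference between the arteries. Its lowest, median and highest values were 12.18, 12.39 and 12.57 in LAD, 12.60, 12.75 and 12.87 in TA, and 12.42, 12.65 and 12.77 in PVAT. LAD lay below TA without overlap, with a difference of -0.35 (SE 0.052, limma adjusted p = 4.85e-06) in 10 of 10 pigs. PVAT lay 0.25 above LAD (adjusted p = 0.000119) and did not differ from TA past the threshold (-0.10, adjusted p = 0.0929).

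RPL14, also of the large subunit, had values of 12.87, 12.98 and 13.19 in LAD, 13.12, 13.16 and 13.23 in PVAT, and 13.15, 13.28 and 13.36 in TA. Only the top of the LAD range reached the TA range. LAD minus TA was -0.29 (SE 0.036, limma adjusted p = 4e-07), PVAT minus LAD 0.17 (adjusted p = 0.000149) and PVAT minus TA -0.11 (adjusted p = 0.00764). RPL14 thus stood in the order LAD, PVAT, TA, each step past the threshold.

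RPLP0, the protein that anchors the stalk to the large subunit and a common reference gene in quantitative PCR, had values of 13.53, 13.61 and 13.64 in LAD, 13.62, 13.69 and 13.72 in PVAT, and 13.77, 13.82 and 13.90 in TA. All TA arrays lay above all LAD and all PVAT arrays, and LAD and PVAT met at 13.62 to 13.64. LAD minus TA was -0.23 (SE 0.033, limma adjusted p = 4.83e-06), PVAT minus TA -0.15 (adjusted p = 0.000314) and PVAT minus LAD 0.077 (adjusted p = 0.045).

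**Figure D3:**
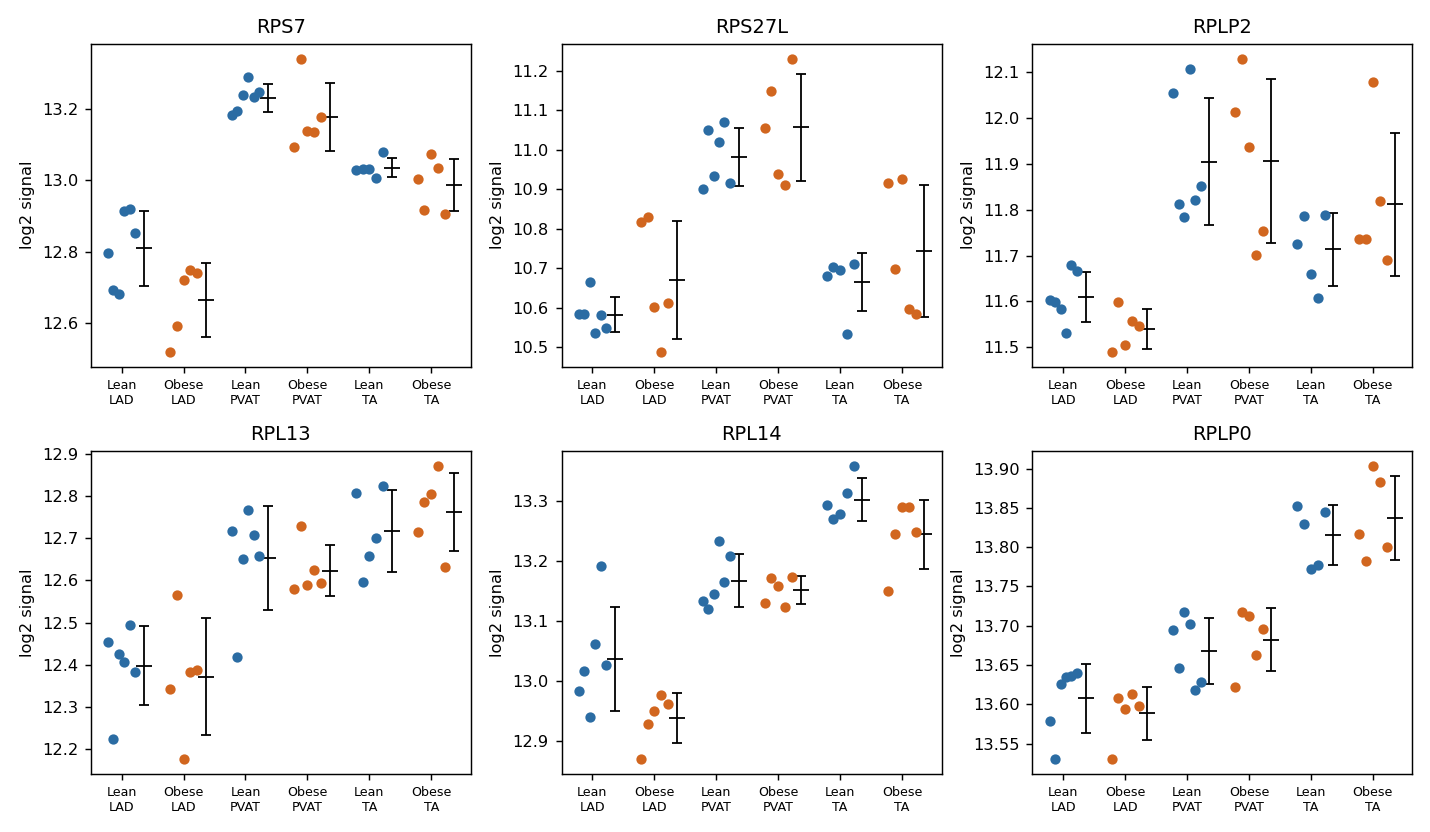
Log2 value of RPS7, RPS27L, RPLP2, RPL13, RPL14 and RPLP0 on each array (y axis, log2, a separate scale per gene), by tissue, with lean pigs in blue, obese pigs in orange and black bars for the mean ± SD. RPS7 and RPS27L are highest in PVAT, RPLP0 is highest in TA, and RPL13 is lowest in LAD, at 12.18 to 12.57.

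Further genes with large differences between the arteries were RPSA (-0.26, SE 0.056, limma adjusted p = 0.000881) and RPS15, near the decoding site (-0.24, SE 0.044, adjusted p = 9.12e-05). In both the LAD and TA ranges overlapped, as in RPSA with 12.97 to 13.21 in LAD and 13.10 to 13.70 in TA. RPS6 (-0.13, adjusted p = 0.0248) and RPS19 (-0.12, adjusted p = 0.00866) were lower in LAD. RPS4X (-0.11, adjusted p = 0.063), RPL3 (-0.16, adjusted p = 0.0522), RPL10 (-0.055, adjusted p = 0.266), RPL39 (-0.056, adjusted p = 0.306) and RPL22 (-0.025, adjusted p = 0.683) did not pass. RPL37A was the only gene with a positive difference, 0.079, which did not pass (adjusted p = 0.101).

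Between fat and aorta the members split. Of the 67 genes, 11 were higher in PVAT and 9 lower (limma, adjusted p under 0.05), against 26.9% higher and 32.9% lower of all tested probe sets. The count of higher members was 7 with arrays centred on their median and 17 with quantile normalization, and 5 of 56 with members named by the platform annotation. The members' median was -0.015, and that of all tested probe sets -0.040. The large subunit had 4 genes higher and 6 lower, the small subunit 6 higher and 2 lower, and the stalk 1 of each. RPS7 was the only member with all PVAT arrays above all TA arrays (1.49% of the members, against 4.96% of all tested probe sets), and RPS23 and RPLP0 the only ones with all below (2.99%, against 4.57%).

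The higher genes were led by RPS27L and RPS7, described above, and included RPL22 of the large subunit. RPL22 was at 13.25, 13.35 and 13.46 in TA, 13.24, 13.34 and 13.41 in LAD, and 13.41, 13.51 and 13.62 in PVAT, with only the top of the TA range reaching into that of the fat. It was higher in PVAT than in TA by 0.15 (SE 0.037, limma adjusted p = 0.000747), in 10 of 10 pigs, while its second probe set differed by -0.30 and did not pass (adjusted p = 0.0506).

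The lower genes included RPS23, at the decoding centre, which had values of 13.82, 13.92 and 14.00 in TA, 13.68, 13.75 and 13.82 in PVAT, and 13.67, 13.74 and 13.81 in LAD. For RPS23 the fat and the coronary artery lay together under the aorta, with differences of -0.17 (limma adjusted p = 6.99e-05) and -0.19 (adjusted p = 4.56e-05). The further RPS23 probe sets went opposite ways between PVAT and TA, at 0.83 (adjusted p = 0.000362) and -0.89 (adjusted p = 1.21e-05). RPL15 (-0.17, adjusted p = 0.00222), RPS14 (-0.17, adjusted p = 0.0019), RPL36 (-0.14, adjusted p = 0.00451) and RPL5, which binds MDM2 together with RPL11 (-0.14, adjusted p = 0.00211), were also lower in PVAT than in TA and did not pass between PVAT and LAD. The platform annotation names GLG1 and SAL1 for the probe set of RPS14.

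Other marker levels moved with the tissues. Of all tested probe sets, 14.4% were higher and 10.1% lower in LAD than in TA. Between PVAT and LAD, 24.2% were higher and 32.4% lower in PVAT. Cardiomyocyte markers were higher in LAD than in TA in 13 of 21 genes and lower in 1, with a median difference of 1.64. With the mean of the cardiomyocyte markers as a covariate, 14 members were lower in LAD than in TA in place of 39, and their median was -0.076. That mean did not overlap between LAD (8.15 to 12.42) and TA (6.51 to 8.05). The fit could thus separate it from tissue only by the spread within groups, and the fewer calls cannot be assigned to heart muscle. The same covariate left 46 members higher in PVAT than in LAD (median 0.13) and moved PVAT minus TA to 13 higher and 2 lower (median 0.052). Smooth muscle markers were lower in PVAT than in LAD in 12 of 12 genes (median -1.56), endothelial markers were higher in 8 of 11 and lower in 1 (median 0.68), macrophage markers higher in 4 of 10 (median 0.46) and nerve markers higher in 5 of 7 (median 0.83). The part of these cell types in the members' differences was not tested. The 28S/18S ratio, a measure of RNA integrity, was lower in the fat, with a median of 0.95 (0.57 to 1.24) in PVAT against 1.30 (0.63 to 1.47) in LAD and 1.29 (0.57 to 2.14) in TA. With it as a covariate, 46 members were higher in PVAT than in LAD and 42 lower in LAD than in TA, with 0 in the opposite directions, and PVAT minus TA had 12 higher and 9 lower.

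**Figure D4:**
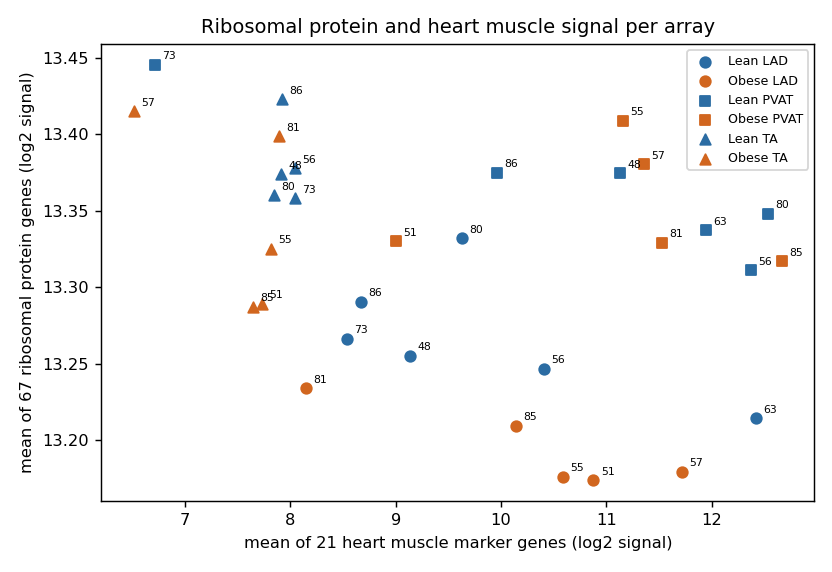
Mean of the 67 ribosomal protein genes (y axis, log2) against the mean of the 21 cardiomyocyte markers (x axis, log2) on each array, with circles for LAD, squares for PVAT and triangles for TA, blue for lean and orange for obese pigs. The TA arrays lie at marker means of 7.65 to 8.05, save that of obese pig 57, which stands apart at 6.51. The LAD arrays spread from 8.15 to 12.42, and the PVAT array of pig 73 stands apart at 6.71 with the highest member mean, 13.45.

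Without the 2 LAD arrays with a cardiomyocyte mean above 11 and the arrays that stood apart in the other tissues (PVAT of pig 73, TA of pig 57, each where its tissue entered), an alternative chosen after the data were seen, 33 members were lower in LAD than in TA and 35 were higher in PVAT than in LAD, with 0 in the opposite directions. PVAT minus TA then had 12 higher and 10 lower. Within the sacrifice dates, of which there were 3 (date 2 with 1 lean and 1 obese pig), the median of PVAT minus LAD was 0.14, 0.13 and 0.081, and that of LAD minus TA was -0.16, -0.11 and -0.091.

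The diets were compared within each tissue, the question the study's title puts. In LAD no gene of the family passed: 0 of 67 were higher and 0 lower in obese pigs (limma, adjusted p under 0.05), with 0.0399% of all tested probe sets higher and 0% lower. At an unadjusted p under 0.05 there were 8 members, and 1720 of all tested probe sets. The obese minus lean difference was negative in 66 of 67 genes, with a median of -0.066. It was also negative in 65.7% of all tested probe sets, with a median of -0.058. With arrays centred on their median 59 members were negative, and with quantile normalization 63. In 8 members (11.9%) every obese array lay below every lean array, against 1.43% of all tested probe sets, and in 0 every obese array lay above, against 1.31%. Those below included RPL19, RPL22, RPL24, RPL27, RPL36, RPS15 and RPS19.

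RPL36, a small protein of the large subunit, came nearest to the threshold. Its lean LAD values had a lowest of 13.08, a median of 13.11 and a highest of 13.24, and its obese values were 12.85, 12.99, 13.01, 12.94 and 12.99 in pigs 51, 55, 57, 81 and 85. All obese values lay below the lean ones, and the highest lean value, of pig 80, stood apart from the others. The difference was -0.17 (SE 0.054), which did not pass (limma adjusted p = 0.195).

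RPL27, also of the large subunit, had lean LAD values of 13.17, 13.24 and 13.30 (lowest, median and highest) and obese values of 13.14, 13.03, 13.12, 13.10 and 13.06. The groups did not overlap, and the difference of -0.15 (SE 0.050) did not pass (limma adjusted p = 0.208). The next by p were RPL29 (-0.12), RPL7A (-0.13), RPS15 (-0.12) and RPL24 (-0.11), which did not pass either. RPS27L was the only member with a positive difference, 0.087. Its obese values were 10.82, 10.83, 10.60, 10.49 and 10.61 against lean values from 10.54 to 10.66, so 2 obese pigs lay above the lean range and 1 below it.

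In the same arrays the macrophage markers were higher in obese LAD in 10 of 10 genes, 1 of them past the threshold, with array means of 9.92 to 11.61 against 8.73 to 9.52 in lean. Smooth muscle markers were negative in 12 of 12, with a median of -0.16 and none past the threshold. The 28S/18S ratio ran from 0.63 to 1.47 in obese and from 1.13 to 1.43 in lean LAD. With that ratio as a covariate the members' median was -0.057, and with the cardiomyocyte mean it was -0.058. Within the sacrifice dates it was -0.044, -0.086 (1 lean against 1 obese pig) and -0.069. The part of macrophage and smooth muscle RNA in it was not tested.

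**Figure D5:**
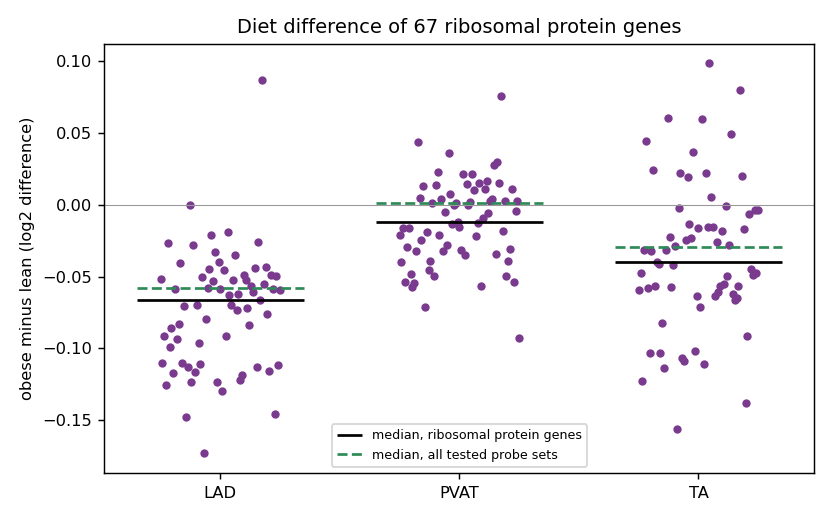
Obese minus lean log2 difference of each of the 67 genes (filled points, 1 per gene) in LAD, PVAT and TA. None passed limma's threshold, so the fill marks no call. A solid black line stands at the members' median and a dashed green line at the median of all tested probe sets. Nearly all genes lie below 0 in LAD (median -0.066, against -0.058 over all tested probe sets), and they spread around 0 in PVAT (median -0.012).

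In PVAT, 0 of 67 genes passed in either direction, as did 0% of all tested probe sets, and 0 members had an unadjusted p under 0.05, against 221 of all tested probe sets. The median difference was -0.012, with 27 genes positive and 40 negative (37 and 30 with quantile normalization), and the smallest adjusted p was 0.999 (limma). No member had groups without overlap, against 0.16% (obese above) and 0.0499% (obese below) of all tested probe sets. In TA, 0 of 67 passed, again with 0% of all tested probe sets in either direction, and 0 had an unadjusted p under 0.05, against 720 of all tested probe sets. The median was -0.040, with 13 genes positive and 54 negative, against a median of -0.029 over all tested probe sets. With quantile normalization the split in TA was 29 positive and 38 negative, with a median of -0.0050. Within the sacrifice dates the median in PVAT was 0.065, -0.029 and -0.055, and in TA it was -0.0038, -0.087 and -0.040. Date 2, the middle value, compares 1 pig with 1 pig, and date 1 had 1 lean TA array.

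RPL34, a large subunit protein, had the smallest adjusted p in TA. Its lean TA values were 13.27, 13.39, 13.42, 13.38 and 13.36 and its obese values 13.20, 13.24, 13.19, 13.25 and 13.16. All obese values lay below the lean ones, and the difference of -0.16 (limma's moderated SE 0.074) did not pass (limma adjusted p = 0.69). That SE draws each gene's variance toward the variance of all tested probe sets. Their median SD was 0.16 in lean and 0.34 in obese TA, against 0.037 and 0.079 for the members. The absence of calls among the members therefore cannot show that no difference was present. RPL5, RPL9, RPL11 and RPS23 also had all obese TA arrays below all lean ones, which makes 7.46% of the members against 1.6% of all tested probe sets. In 0 members all obese TA arrays lay above the lean ones, against 1.4%. In the same arrays the 28S/18S ratio ran from 0.57 to 2.14 in obese and from 1.17 to 1.54 in lean pigs, and with it as a covariate the members' median was -0.031. Endothelial markers were positive in 11 of 11 genes, none past the threshold, with a median array mean of 8.19 in obese and 7.58 in lean TA, and smooth muscle markers were negative in 11 of 12. The part of these cell types in the members' values was not tested.

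The diet differences were then compared between tissues by an interaction term. None of the 67 genes passed (0 in every pair of tissues, with 0% of all tested probe sets), and the smallest adjusted p was 0.854 (limma), for RPL34 between PVAT and TA (0.18). It was also the only member at an unadjusted p under 0.05 in any pair of tissues, against 493 of all tested probe sets between PVAT and TA, 292 between PVAT and LAD and 227 between LAD and TA. For 63 of 67 genes the term for PVAT minus LAD was positive, as obese minus lean was lower in LAD, mostly below 0. Its median was 0.064, beside a median of 0.057 over all tested probe sets. With arrays centred on their median 53 members were positive, beside a median of 0.022 over all tested probe sets.

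The genes moved together from pig to pig. After each gene's group means were taken out, the correlation over the 32 arrays had a median of 0.41 over the 2211 pairs of members (quartiles 0.22 and 0.57), and 92.4% of pairs were positive. Over all pairs of tested probe sets the median was 0.043, with 54.4% positive. Within tissues the members' median was 0.40 in LAD, 0.48 in PVAT and 0.51 in TA. These values describe arrays that share pigs and depth of signal, and carry no test.

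RPS27L stood apart with a median correlation of -0.12 with the other members, the lowest of the family, and RPL27 came next at 0.062. RPS7, RPS27L, RPL13, RPLP2, RPSA and RPL28 had the largest SD over all 32 arrays, from 0.21 for RPS7 to 0.16 for RPL28. RPS20 (0.041), RPS27A (0.048), RPL10 (0.054) and RPS29 (0.060) had the smallest. RPS27A is made as a fusion with ubiquitin, and none of these genes but RPS29 passed a tissue comparison (0.10 between PVAT and LAD, limma adjusted p = 0.0107). Brighter members had smaller absolute tissue differences. Over the 67 genes the correlation with mean signal was -0.60 for PVAT minus LAD, -0.48 for PVAT minus TA and -0.27 for LAD minus TA. RPL10, RPS20 and RPS27A were among the brightest members, and RPS27L, RPLP2 and RPL13 among the dimmest. Whether high signal narrowed the differences was not tested.

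A second probe set was present for 34 of the 67 genes, 46 further probe sets in all, of which 38 for 28 genes were tested. Of these 38, 16 were higher and 6 lower in PVAT than in LAD, against 24.2% and 32.4% of all tested probe sets. Between LAD and TA, 2 were higher and 11 lower in LAD, against 14.4% and 10.1%. The difference of these probe sets had the sign of the member in 30 of 38 between PVAT and LAD. The sign was the same in 27 between LAD and TA, and in 19 between PVAT and TA. The platform annotation gave no symbol to 22 of the 46 and another gene to 10, so many may not measure the member.

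Probe sets disagreed most for RPS21 and RPS23. A second RPS21 probe set, with no platform symbol, differed by 1.68 between LAD and TA and by -0.47 between PVAT and LAD, while a further one followed the member's direction, at -0.28 and 0.23. The further RPS23 probe sets differed by 0.99 and -0.82 between PVAT and LAD, while the member was at 0.023. By contrast both RPL31 probe sets moved together from array to array at a correlation of 0.95 after the group means were taken out. For 5 members the chosen probe set itself has another gene in the platform annotation (RPL7A, RPL37, RPL41, RPS14 and RPS15A), and for 12 it has none. Ribosomal protein genes have many processed pseudogenes, and whether the probes also bound those was not tested. RPL13A was found only under the symbol of a pseudogene, RPL13AP5, and so is no member. Its tested probe set differed by -0.14 between LAD and TA and by 0.16 between PVAT and LAD.

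The genes around the ribosome were described from lists chosen as pathways. Their counts are to be read beside the shares of all tested probe sets. These were 24.2% higher and 32.4% lower in PVAT than in LAD, and 14.4% higher and 10.1% lower in LAD than in TA. Between PVAT and TA they were 26.9% higher and 32.9% lower. The lists were small, and no count was tested against its share. Among 10 ribosomal fusion genes, paralogues and ribosome-bound factors (of which RPS27A is also a member), 4 were higher and 0 lower in PVAT than in LAD, and 0 were higher and 5 lower in LAD than in TA. FAU, which makes a small subunit protein fused to a ubiquitin-like protein, differed by 0.10 between PVAT and LAD (limma adjusted p = 0.0164) and by -0.14 between LAD and TA. GNB2L1, now called RACK1, a scaffold on the small subunit, was lower in LAD than in TA (-0.23, adjusted p = 3.4e-05) and did not pass between PVAT and LAD. RPL22L1, the paralogue of RPL22, differed more, by 0.46 and -0.63, where RPL22 itself differed by 0.18 and, not passing, by -0.025.

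Among 9 genes listed as elongation factors 5 were higher and 0 lower in PVAT than in LAD, and 1 was higher and 3 lower in LAD than in TA. The 5 were EEF1A2, EEF1B2, EEF1D, EEF1E1 and TUFM. Of these, TUFM serves mitochondrial ribosomes and EEF1E1 is a part of the transfer RNA synthetase complex. EEF1A1, the factor that brings transfer RNA to the ribosome, passed in neither comparison, and its muscle form EEF1A2 was higher in PVAT than in LAD by 2.39 and in LAD than in TA by 3.82. EEF1D, a subunit of its exchange factor, followed the direction of the members, at 0.31 and -0.47. EEF2, which moves the ribosome along, was lower in LAD than in TA (-0.12, limma adjusted p = 0.041).

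Of 40 initiation factors, which bring the subunits to messenger RNA, 3 were higher and 8 lower in PVAT than in LAD, with EIF5B, which joins the subunits, at -0.41 and EIF4G1, the scaffold of the cap complex, at -0.43. Between LAD and TA, 0 were higher and 13 lower, among them EIF3D (-0.40) and EIF3F (-0.38), subunits of the scaffold factor of the small subunit. Between PVAT and TA, 2 were higher and 20 lower.

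Of 38 ribosome biogenesis genes, 9 were higher and 3 lower in PVAT than in LAD, and 1 was higher and 11 lower in LAD than in TA. The count higher in PVAT was near the share of all tested probe sets, 24.2%. GNL3, or nucleostemin, differed by 0.67 and -0.37, and NPM1, the nucleolar chaperone, by 0.066, which did not pass, and -0.29. DDX21, a nucleolar helicase, was lower in LAD than in TA (-0.42). Among 10 genes of mTORC1 and S6 kinase signalling, 2 were higher and 4 lower in PVAT than in LAD, and 2 were higher and 1 lower in LAD than in TA. These counts were near the shares of all tested probe sets. The list mixes genes that raise mTORC1 activity with genes that lower it, so the counts give no direction of the pathway. MYC, a transcription factor that drives ribosome production, was highest in TA, with LAD below TA (-1.14) and PVAT above LAD (0.65) but below TA (-0.49). The other gene higher in PVAT than in LAD was DDIT4 (1.18), and the 4 lower were TSC2 (-1.33), MTOR (-0.39), AKT1S1 (-0.29) and AKT1 (-0.20). The 2 higher in LAD than in TA were DDIT4 (0.85) and AKT1 (0.26). In the diet comparisons 0 genes of these 5 lists passed in any tissue.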

How the data were processed

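RNA of 3 tissues from 11 pigs was hybridised to 32 Affymetrix porcine arrays, and the labels give all arrays the same experiment date. The authors deposited 1 log2 value per probe set and array, made with the affy package, per the submitters' processing notes. Its version, the background correction and the normalization are not given in the sources used here. No genome positions came with the table, so none are printed. The values were used as deposited. Probe sets were filtered on their mean over all arrays, leaving out the lowest 30%. Diets were compared inside each tissue. Tissues (averaging the difference in lean and in obese pigs) and diet by tissue were compared in 1 fit over all 6 groups, with limma 3.58.1 in R 4.3.3 (lmFit, eBayes, two-sided, Benjamini-Hochberg over 10029 probe sets, threshold 0.05). Each SE is limma's moderated one, in which a gene's variance is drawn toward that of all tested probe sets. As the members varied less than most probe sets, an absence of calls among them does not show an absence of differences. The fits were tested on simulated data. The number of arrays limits the precision. The members, lists, tests and alternatives were chosen with earlier results of these data known. Named members were, per comparison, all that passed if 12 or fewer, otherwise the 6 largest in each direction, else the 6 with the smallest p. Also named were fixed members (stalk, RPSA, RPS6, RPS4X, RPS19, RPL22, paralogues and parents), the 6 highest and 4 lowest by SD over all arrays, and those with conflicting probe sets or annotation. Some genes that the rule names are not reported here. Other genes were named after their values were seen. Alternatives covered the filter, scaling, probe set choice, symbols, eBayes trend, sacrifice date, RNA ratio, cardiomyocyte level, the pig as a block and each pig left out. Tissues of a number came from the same pig: over 31 pairs of arrays the correlation of deviations from group means ran from -0.20 to 0.50 (median 0.24), over 0.1 in 19.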

Additional observations from a re-analysis of the deposited data

Results flagged for a closer look

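In each group the highest and lowest pig was compared with the next, for every named member reported here and for the members' mean. Dixon's criterion marks about 1 in 20 by chance. It marked 1 pig far from the others in 19 of 246 sets of arrays, all of them sets of named members. The explanation of these values was not tested.

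The lean TA array of pig 86 was the most frequent, with 4 genes above the other lean TA arrays: RPL28 at 13.25, RPL29 at 13.40, RPL8 at 13.17 and RPS29 at 13.76. In the same group RPS27L was low in pig 80, at 10.53 against 10.68 to 10.71.

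In lean LAD, pig 80 was high for RPL36 (13.24), whose other lean values ran from 13.08 to 13.12. Pig 63 was low for RPL3 (12.92) and high for RPS27L (10.66), and pig 48 was low for RPS3 (13.66). In obese LAD, pig 81 was high for RPL24 (13.38), pig 51 was low for RPLP0 (13.53), and pig 55 was high for RPS21 (13.33, against 13.14 to 13.17).

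In lean PVAT, pig 56 was low for RPL13 (12.42, against 12.65 to 12.77), and pig 73, the array with few cardiomyocyte transcripts, was high for RPL24 (13.58) and RPS15A (13.43). In obese PVAT, pig 51 was low for RPL15 (12.96), pig 55 high for RPL35 (13.39) and pig 57 high for RPLP1 (13.22). In obese TA, pig 57 was low for RPS23 (13.82, against 13.90 to 13.92).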

How the results depend on the processing

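Over 630 alternative values of the members' counts and medians, 612 stayed within set bounds. A count had to stay within 1.5 times, and a median within 0.042, the pooled SD of the members' mean between replicates. The 630 include the diet and diet by tissue counts, which were 0 in every alternative and say little, as almost no probe set passed there. LAD minus TA gave 1 member higher with quantile normalization and 1 with a trend in eBayes. With the cardiomyocyte mean as a covariate it gave 14 lower, and PVAT minus TA 2 lower with a median of 0.052. PVAT minus LAD gave 3 lower with the dimmest probe set per gene and 1 lower with the 56 members named by the platform annotation. PVAT minus TA gave 7 higher with arrays centred on their median, 17 with quantile normalization and 5 by the platform annotation. Within sacrifice dates 1 to 3 some medians shifted: the diet median in PVAT was 0.065 in date 1 and -0.055 in date 3, that in TA was -0.087 in date 2 (1 pig against 1 pig), and LAD minus TA was -0.16 in date 1. The diet difference PVAT minus LAD was 0.12 in date 1 and 0.017 in date 3, and PVAT minus TA 0.084 and -0.031. Of 5320 alternative values of the named members, 4905 stayed the same. Among the rest, 65 no longer passed the threshold, 33 newly passed it, and 311 shifted in size or, where no call stood, in sign. With the dimmest probe set per gene, 6 values turned: RPL10 (-0.33) and RPS20 (-0.34) for PVAT minus LAD, and RPL22 (-0.30), RPS20 (-0.41), RPS23 (0.83) and RPLP1 (0.50) for PVAT minus TA. The cause of these shifts was not tested.

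With the pig as a replicate block, 45 members were higher in PVAT than in LAD, 42 were lower in LAD than in TA, and 12 were higher and 10 lower in PVAT than in TA. The block moved no count by more than 1.5 times and left 0 diet calls. Leaving out each pig in turn gave 31 to 39 lower in LAD than in TA (median -0.13 to -0.11), 36 to 45 higher in PVAT than in LAD (0.098 to 0.13), and 9 to 14 higher and 9 to 10 lower in PVAT than in TA (-0.025 to -0.0037). The diet counts stayed at 0, with medians of -0.078 to -0.055 in LAD, -0.023 to 0.0046 in PVAT and -0.056 to -0.024 in TA. The diet differences ran from -0.053 to -0.016 for LAD minus TA, 0.039 to 0.082 for PVAT minus LAD and 0.011 to 0.041 for PVAT minus TA. The PVAT diet median turned positive without pig 73.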

Other observations

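Ribosomal protein sequences annotated as pseudogenes or paralogues lay outside the rule and gave 15 further probe sets. RPL36AL, a paralogue of RPL36A, was higher in PVAT than in LAD by 0.24 (limma adjusted p = 9.8e-05) and in PVAT than in TA by 0.19 (adjusted p = 0.000902). A probe set with the pseudogene symbol RPL4P4 was lower in PVAT than in LAD, with a difference of -1.05 (adjusted p = 9.39e-10), while RPL4 itself was higher there by 0.092 (adjusted p = 0.0204). Probe sets named RPS26P25 and RPL21P16, which the platform annotation calls RPS26 and RPL21, passed in no tissue comparison. RPL7L1, a factor of large subunit assembly, differed by 0.18 between PVAT and TA (adjusted p = 0.0216). These genes were chosen after their values were seen.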
